A study of Mus musculus with 6 samples.

Results

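The genes described here are 8 transcripts of the cystatin and cathepsin system, *Cst3*, *Cstb*, *Ctsb*, *Ctsd*, *Ctsk*, *Ctsl*, *Ctss* and *Ctsz*, taken by symbol from the 24421 rows of a bulk RNA sequencing matrix of sorted aortic cells. All 8 symbols were found in the matrix. The set was put together with values of this matrix in view, so the levels of these genes and their differences between lineages are given as a description, without a test. The libraries came from mice on the 129S6/SvEv background at 8 weeks of age that carried a conditional *CAG-Sun1/sfGFP* reporter, a nuclear envelope protein fused to GFP that Cre switches on. In 3 libraries the reporter was activated by the *Mef2cSHF* Cre allele, which traces the secondary heart field (SHF), and in 3 by *Wnt1-Cre2*, which traces the cardiac neural crest (CNC). The header of the matrix marks all 6 libraries as wild type. The aortic root and ascending aorta were digested with collagenase and elastase, GFP+ cells that excluded propidium iodide were collected, and their RNA was amplified by the SmartSeq2 protocol. The alleles trace descent, so any traced cell type of the tissue could enter the sort.

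Cathepsins are proteases that work mainly in lysosomes and are also secreted into the matrix. Cathepsins B, K, L, S and Z are cysteine proteases of the papain family, and cathepsin D is an aspartic protease. Cathepsins K, L and S are known for cleaving elastin, the protein of the elastic lamellae, whereas cathepsin B is a weaker elastase and cathepsin Z acts mainly as a carboxypeptidase. Cystatin C, the product of *Cst3*, is a secreted inhibitor that binds cysteine cathepsins tightly, and cystatin B, the product of *Cstb*, is an inhibitor that acts inside the cell. Neither blocks cathepsin D. In the artery wall, the balance of cystatin C and elastolytic cathepsins has been studied in aneurysm and atherosclerosis.

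Levels are TPM, the share of a transcript per 1000000 transcripts, a value relative to the total of each library and corrected for transcript length, so that genes can be compared within a library. Where 3 values are given for a lineage, they are those of replicates 1, 2 and 3 in that order. TPM values keep no record of sequencing depth, and a value of 0 is therefore given as listed at 0. In bulk samples, fewer cells of a type and less RNA per cell cannot be told apart. Between 9255 and 11858 genes were above 0 TPM in a library. The 10 fibroblast genes of the marker list together reached 29085 to 54787 TPM in the 6 libraries, against 1379 to 3145 TPM for 12 smooth muscle genes. SHF replicates 2 and 3 stood apart in that *Xist* was above 0 and the Y-linked *Ddx3y* was listed at 0, while the other 4 libraries showed the opposite, so sex and lineage are partly confounded. A comparison within the sex of the CNC libraries leaves SHF replicate 1 alone, which is too few for a comparison.

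The genes lie on 6 chromosomes of GRCm38, the build called mm10, by the GENCODE M21 annotation. *Cst3* is on chromosome 2 from 148871722 to 148875692 and *Ctsz* on the same chromosome from 174427493 to 174439039. *Ctsk*, on chromosome 3 from 95499256 to 95509362, and *Ctss*, from 95526786 to 95556403, are neighbours on the same strand, separated by 17423 bases with no annotated gene between them. *Ctsd* is on chromosome 7 from 142375911 to 142388038, *Cstb* on chromosome 10 from 78425669 to 78427622, *Ctsl* on chromosome 13 from 64359337 to 64370890, and *Ctsb* on chromosome 14 from 63122462 to 63145923. All 8 are protein-coding. Exons of *Ctsb* overlap those of *Fdft1*, and exons of *Ctsz* overlap those of *Nelfcd*, in both cases on the opposite strand. Exons of *Ctsl* overlap the antisense gene *Gm47123* and the pseudogene *Gm49230*, and exons of *Ctsd* overlap *Gm49369* on the same strand. Reads in these stretches could belong to either gene, and the values of these 4 genes are uncertain to that extent.

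The promoters of *Cst3*, *Ctsl* and *Ctsz*, the 3 genes whose libraries did not overlap between lineages, are given here together with that of *Ctsd*, which holds the most matches to the motifs searched. Each is RefSeq sequence of GRCm38.p6, from 250 bases before to 50 bases after the RefSeq start of the gene, written in the direction of transcription. That start is the outermost GENCODE start in *Ctsz* and lies 180, 370 and 211 bases inside the GENCODE gene in *Cst3*, *Ctsl* and *Ctsd*. The whole window of *Ctsl*, with its match, therefore lies inside the GENCODE gene. Capitals mark the E-box core CACGTG, which reads the same on both strands and is the centre of the sites bound by TFEB, a factor that drives lysosomal genes, and the GC box core GGGCGG or its reverse complement CCGCCC. The *Cst3* window is at chr2:148875463-148875762, that of *Ctsl* at chr13:64370471-64370770, that of *Ctsz* at chr2:174438990-174439289 and that of *Ctsd* at chr7:142387778-142388077, all on the minus strand.
Cst3: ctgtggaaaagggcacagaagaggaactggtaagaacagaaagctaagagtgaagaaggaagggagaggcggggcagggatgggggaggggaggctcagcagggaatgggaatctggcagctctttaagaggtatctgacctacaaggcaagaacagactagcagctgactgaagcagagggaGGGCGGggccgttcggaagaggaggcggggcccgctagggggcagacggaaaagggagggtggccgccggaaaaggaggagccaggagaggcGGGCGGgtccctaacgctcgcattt
Ctsl: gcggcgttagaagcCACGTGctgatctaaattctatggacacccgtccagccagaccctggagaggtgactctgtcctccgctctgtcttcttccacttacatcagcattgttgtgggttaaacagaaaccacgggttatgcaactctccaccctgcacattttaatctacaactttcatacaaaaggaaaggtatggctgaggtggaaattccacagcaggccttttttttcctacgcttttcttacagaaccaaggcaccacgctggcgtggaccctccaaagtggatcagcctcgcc
Ctsz: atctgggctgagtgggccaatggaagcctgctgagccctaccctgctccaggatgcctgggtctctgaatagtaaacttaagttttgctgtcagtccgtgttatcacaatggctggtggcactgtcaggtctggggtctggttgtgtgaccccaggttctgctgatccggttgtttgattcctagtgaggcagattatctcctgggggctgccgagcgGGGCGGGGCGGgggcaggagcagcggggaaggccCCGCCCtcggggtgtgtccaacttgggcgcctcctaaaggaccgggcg
Ctsd: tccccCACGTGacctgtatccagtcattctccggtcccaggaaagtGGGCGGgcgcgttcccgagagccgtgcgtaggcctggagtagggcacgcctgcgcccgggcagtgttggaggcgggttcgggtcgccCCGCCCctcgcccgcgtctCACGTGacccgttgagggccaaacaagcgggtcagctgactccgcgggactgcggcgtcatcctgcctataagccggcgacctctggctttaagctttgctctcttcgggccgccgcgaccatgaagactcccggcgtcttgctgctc
The windows of *Ctsk* and *Ctss* were searched as well, giving 6 promoters of the set. CACGTG was in 2 of these 6, with a match that starts 236 bases before the RefSeq start in *Ctsl* and matches that start 245 and 98 bases before it in *Ctsd*, and it was in 7.15% of 32851 mouse promoters of the same length. The longer consensus of lysosomal genes, which is CACGTG preceded by GT and followed by AC and reads the same on both strands, was in 0 of the 6 and in 0.326% of all promoters. GGGCGG on either strand was in 4 of the 6, *Cst3*, *Ctsd*, *Ctss* and *Ctsz*, against 35.7% of all promoters. In *Ctsz*, matches that start 32 and 27 bases before the RefSeq start overlap each other. TATAAA on either strand was in 1 of the 6, *Ctss*, against 13.6% of all promoters. These matches describe the letters in the windows, and none of the 4 motifs searched was in all 6.

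Of the inhibitors, *Cst3* was among the most abundant transcripts of the sorted cells. It measured 10828, 10179 and 8810 TPM in SHF and 14630, 14839 and 20108 TPM in CNC libraries. Every CNC library was above every SHF library, with 3801 TPM between the closest pair. By mean TPM *Cst3* ranked 3 among all rows, and within a library its rank ran from 1 in CNC replicate 3 to 7 in SHF replicate 3. Its share of all TPM ran from 0.881% to 2.01%. The mean was 9939 ± 1030 TPM in SHF against 16525 ± 3104 TPM in CNC libraries (SD, n = 3 each), 1.66 times as high. The log2 difference, SHF minus CNC, was -0.72 with a standard error of 0.20.

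*Cstb* was far lower and far more variable. It measured 382, 32.9 and 119 TPM in SHF and 185, 370 and 167 TPM in CNC libraries. The lineages overlapped widely, and the highest SHF library was 11.59 times the lowest. The cystatin B transcript came to between 0.324% and 3.53% of the *Cst3* level in the same library. Its log2 difference of -0.96 (SE 0.73) rested on SHF replicate 2, the lowest library, since without that library the difference was -0.08, and without SHF replicate 1 it was -1.82.

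Among the elastolytic cathepsins, *Ctsl* was the most abundant. It measured 1148, 1010 and 1218 TPM in SHF and 1711, 1660 and 1835 TPM in CNC libraries. The lineages did not overlap, with 442 TPM between the closest pair, and the highest library of a lineage was at most 1.21 times its lowest. The mean was 1126 ± 106 TPM in SHF against 1735 ± 89.6 TPM in CNC libraries (SD, n = 3 each), and the log2 difference was -0.63 (SE 0.22). *Ctsl* made up between 50.7% and 61.8% of the summed level of the 5 cysteine cathepsins.

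*Ctsk*, a collagenase and elastase best known from osteoclasts, was at 170, 86.0 and 340 TPM in SHF and 205, 201 and 442 TPM in CNC libraries. In each lineage replicate 3 was highest, and the lineages overlapped. The log2 difference was -0.62 (SE 0.52), and the highest SHF library was 3.95 times the lowest. The difference was -0.13 without SHF replicate 2, -0.25 without CNC replicate 3 and -1.12 without SHF replicate 3.

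*Ctss*, the cathepsin typical of macrophages and other antigen-presenting cells, was listed at 0 in 5 of the 6 libraries and was at 17.8 TPM in CNC replicate 2. It was the only gene of the 8 listed at 0 in any library and the only one that did not pass the filter of at least 1 TPM in at least 3 libraries. Its neighbour *Ctsk* was at 201 TPM in the same library. No fold change is given for *Ctss*.

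Of the cathepsins less known for elastolysis, *Ctsz* measured 306, 286 and 432 TPM in SHF and 476, 557 and 579 TPM in CNC libraries. The lineages did not overlap, but only 43.9 TPM lay between SHF replicate 3 and CNC replicate 1. The log2 difference was -0.67 (SE 0.29). *Ctsd* measured 912, 472 and 647 TPM in SHF and 863, 950 and 993.7 TPM in CNC libraries. SHF replicate 1 lay within the CNC range, and the log2 difference of -0.52 (SE 0.29) was -0.28 without SHF replicate 2. Among the 7 genes tested, *Ctsb* had the smallest log2 difference between lineages and was the only gene with a higher mean in SHF. It measured 488, 516 and 412 TPM in SHF and 376, 432 and 483 TPM in CNC libraries, with a log2 difference of 0.13 (SE 0.28).

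**Figure D1:**
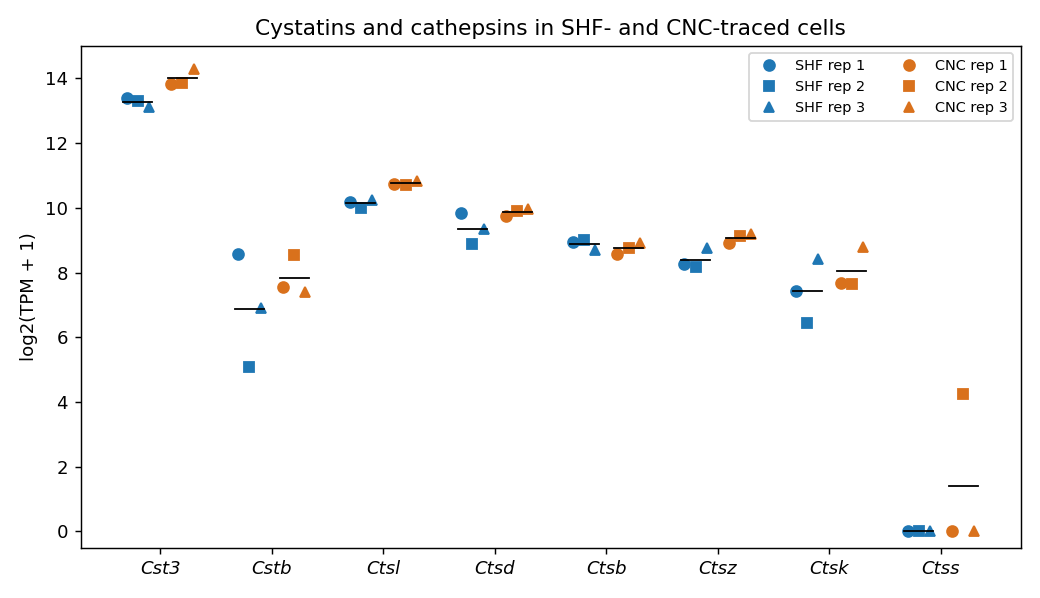
Levels of the 8 genes on the log2(TPM + 1) scale, by gene on the horizontal axis, with SHF libraries in blue and CNC libraries in orange, a symbol for each replicate and a bar at the mean of each lineage. *Cst3*, *Ctsl* and *Ctsz* show no overlap between lineages, *Cstb* and *Ctsk* spread most among the genes detected in all libraries, and *Ctss* is above 0 in CNC replicate 2 alone.

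In order of mean TPM over the 6 libraries the genes were *Cst3* (13232), *Ctsl* (1430), *Ctsd* (806), *Ctsb* (451), *Ctsz* (439), *Ctsk* (241), *Cstb* (209) and *Ctss* (2.97). *Cst3* was above *Ctsl* in 6 of 6 libraries, by 7.23 to 10.96 times, and *Ctsl* was above *Ctsd* in 6 of 6. *Ctsd* was above *Ctsb* in 5 of 6. *Ctsb* and *Ctsz* had no common order, since *Ctsb* was the higher in 2 of 6 libraries, SHF replicates 1 and 2. *Ctsz* was the higher in SHF replicate 3 and in every CNC library. *Ctsz* was above *Ctsk* in 6 of 6, whereas *Ctsk* and *Cstb* could not be ordered, with *Ctsk* higher in 4 of 6.

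The question put to the libraries was whether cells of either lineage of origin differed in transcript level. In the limma fit of log2(TPM + 1) over 10185 genes with Benjamini-Hochberg adjustment, 0 genes had an adjusted p under 0.05 (0.0%), the smallest adjusted p was 0.433, and 597 genes had an unadjusted p under 0.05. The 7 genes of the set that passed the filter were part of this fit. Of them, 6 had a higher mean in CNC, against 48.8% of all genes tested, and their median log2 difference was -0.63, against 0.02 for all genes tested. The lineages did not overlap in 3 genes of the 8, all higher in CNC, and 0 were higher in SHF, against 5.68% of all genes tested that were higher in CNC without overlap and 6.11% that were higher in SHF. All 7 tested genes of the set had means above 100 TPM, and among tested genes whose mean reached 100 TPM the share higher in CNC without overlap was 9.66%. Because the set was chosen on this contrast, nothing is read from these counts. The count depended on single libraries. Without SHF replicate 1 it was 5, as *Cstb* and *Ctsd* joined on the CNC side, where 12.1% of all genes tested then lay. Without SHF replicate 3 it was also 5, as *Ctsk* joined on the CNC side and *Ctsb* on the SHF side, with 21.2% of all genes tested without overlap in either direction against 11.8% over all 6 libraries. The study looked for lineage-exclusive transcripts with a TPM threshold, read here as above 5 TPM in each library of a lineage and at 0 in each library of the other, and no gene of the set met it. The share of all rows that met the same filter is not given here, so nothing is read from this count either.

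**Figure D2:**
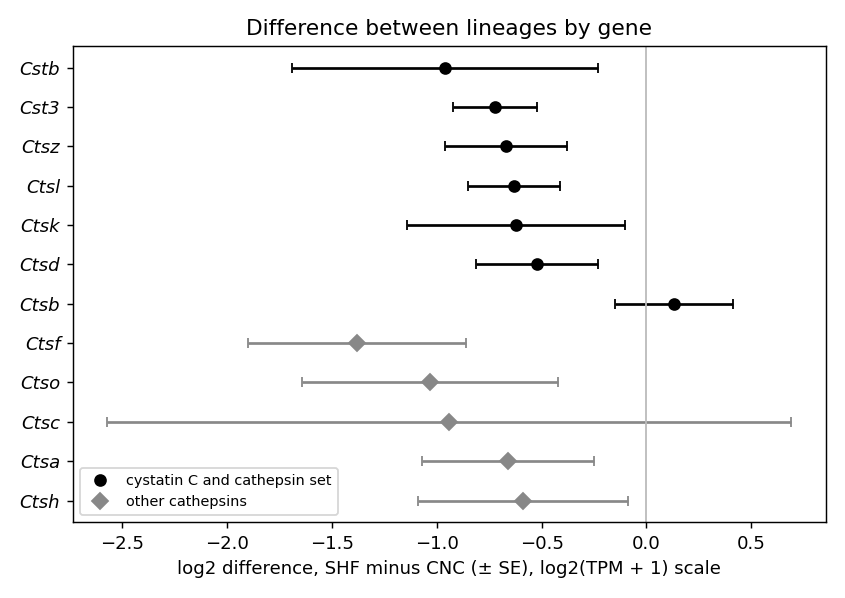
Log2 difference, SHF minus CNC, with its standard error from limma, for the 7 tested genes of the set in black and for the 5 tested other cathepsins in grey. Values left of the line at 0 are higher in CNC, and *Ctsb* at 0.13 is the only gene to the right of it.

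Inhibitor and proteases were also compared within each library. The summed level of *Ctsb*, *Ctsk*, *Ctsl*, *Ctss* and *Ctsz* was 2112, 1898 and 2402 TPM in SHF replicates 1, 2 and 3 and 2768, 2868 and 3340 TPM in CNC replicates 1, 2 and 3. The lineages did not overlap in this sum. *Cst3* was 5.13, 5.36 and 3.67 times the sum in the SHF replicates and 5.29, 5.17 and 6.02 times the sum in the CNC replicates. The means of 4.72 ± 0.918 (SD, n = 3) and 5.49 ± 0.46 (SD, n = 3) differed by less than the SD of the SHF libraries, and the lineages overlapped, with SHF replicate 3 lowest and CNC replicate 3 highest. These are ratios of transcripts, and protein and protease activity were not measured here.

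**Figure D3:**
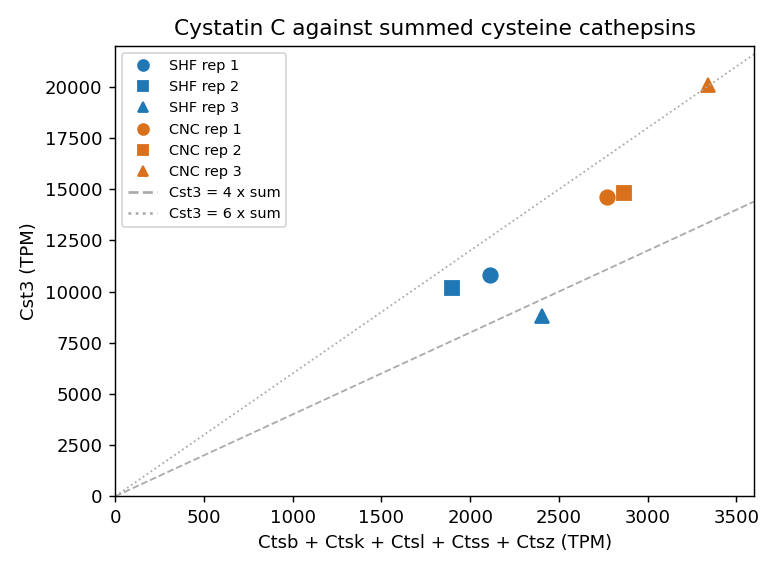
*Cst3* in TPM against the summed TPM of the 5 cysteine cathepsins, 1 point for each library, with lines where *Cst3* is 4 and 6 times the sum. SHF libraries lie lower on both axes, 5 of the 6 points lie above the lower line, and SHF replicate 3, at 3.67 times, lies under it.

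Fibroblast markers were also higher in the CNC libraries. The summed level of the 10 fibroblast genes ran from 29085 to 32120 TPM in SHF and from 40670 to 54787 TPM in CNC libraries without overlap, and 6 of the 10 were higher in every CNC library, against 5.68% of all genes tested. *Col1a1* was at a mean of 4314 ± 278 TPM in SHF against 10631 ± 2907 TPM in CNC libraries (SD, n = 3 each), and *Col3a1* at 7987 ± 1055 TPM in SHF against 14310 ± 4438 TPM in CNC libraries (SD, n = 3 each), whereas *Dcn*, the most abundant of the list, overlapped at 12281 ± 602 TPM in SHF against 13442 ± 1405 TPM in CNC libraries (SD, n = 3 each). Divided by the fibroblast sum of the same library, *Cst3* was at 34.2%, 35.0% and 27.4% in SHF replicates 1, 2 and 3 and at 28.0%, 36.5% and 36.7% in CNC replicates 1, 2 and 3, so that the lineages overlapped. *Ctsl*, at 3.63%, 3.47% and 3.79% in SHF and 3.28%, 4.08% and 3.35% in CNC, and *Ctsz* overlapped on this scale too, and *Ctsb* became the only gene of the 8 without overlap, higher in SHF. On this scale 19.0% of all genes tested showed no overlap in either direction, and 1.82% were higher in CNC without overlap. Divided by *Dcn* alone, *Cst3*, *Ctsl* and *Ctsz* remained higher in every CNC library, with *Cst3* at 93.3%, 79.8% and 70.6% of *Dcn* in SHF and 121%, 99.8% and 150% in CNC replicates. On that scale 12.1% of all genes tested showed no overlap, and 4.2% were higher in CNC. Smooth muscle genes overlapped between lineages in their sum, which ran from 1496 to 3145 TPM in SHF and from 1379 to 2075 TPM in CNC. *Myl9*, *Acta2* and *Tagln*, the 3 most abundant of that list, were at 643, 630 and 309 TPM on average over the 6 libraries. The endothelial sum was higher in SHF, from 89.5 to 591 TPM against 37.6 to 61.0 TPM. *Pecam1*, the most abundant endothelial gene, was at a mean of 107 ± 65.4 TPM in SHF against 22.5 ± 14.3 TPM in CNC libraries (SD, n = 3 each), and of the 10 endothelial genes *Emcn*, *Cldn5*, *Cdh5*, *Tie1* and *Vwf* were listed at 0 in all 3 CNC libraries. Others were above 0 in CNC, with *Tek* at 36.7, 23.1 and 1.11 TPM, *Kdr* at 14.4 TPM in CNC replicate 1 and *Erg* at 14.8 TPM in CNC replicate 3. The cardiomyocyte sum was higher in SHF, from 87.4 to 116 TPM against 0 to 37.9 TPM. It was led by *Tnnt2*, *Actc1* and *Myh6*, with averages of 32.0, 11.7 and 8.49 TPM. No single gene of that list separated the lineages. *Tnnt2* made up the whole sum of SHF replicate 2, and its level in CNC replicate 1 (22.1 TPM) exceeded that in SHF replicate 1 (21.5 TPM). *Actc1* and *Myh6* were listed at 0 in SHF replicate 2. *Tnni3* and *Ryr2*, both named after their values were seen, had higher means in CNC. The Schwann cell sum was higher in CNC, from 21.4 to 94.4 TPM against 1.5 to 15.3 TPM, with *S100b* and *Cdh19* at 8.79 and 5.73 TPM on average. Erythroid genes reached 380 TPM in SHF replicate 1 and at most 48.7 TPM elsewhere, and the dissociation genes, led by *Fos*, *Junb* and *Egr1*, overlapped in their sum, from 6351 to 13837 TPM in SHF and from 7233 to 9022 TPM in CNC. The part of these cell types in the levels of the cystatin and cathepsin genes was not tested.

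Several macrophage genes were highest in the library with *Ctss*, and others were not. Of the 16 genes of the macrophage list, *C1qa*, *C1qc* and *Tyrobp*, named after their values were seen, were above 0 only in CNC replicate 2, at 44.0, 28.3 and 32.3 TPM. In that library *C1qb* was at 141 TPM against at most 9.14 TPM elsewhere, *Lyz2*, or lysozyme, was at 58.9 TPM against at most 14.7 TPM, and *Csf1r*, the receptor for macrophage growth factor, was at 25.9 TPM against at most 3.08 TPM. *Cd68* went the other way, listed at 0 in CNC replicate 2 and highest in SHF replicate 3 at 26.9 TPM. *Mrc1* was above 0 only in SHF replicate 2, at 8.56 TPM, and *Laptm5* only in SHF replicate 1, at 3.42 TPM, both named after their values were seen. The defining markers *Ptprc* and *Adgre1* were listed at 0 in all 6 libraries, as were 4 of the 16 genes in all. *Cd74* and *H2-Aa*, which serve antigen presentation in several cell types, were above 0 in all 6. *Cd74* was highest in SHF replicate 2 at 387 TPM and *H2-Aa* in SHF replicate 1 at 111 TPM. The summed level of the list ran from 178 to 474 TPM in SHF and from 43.4 to 682 TPM in CNC libraries. The part of macrophage RNA in the *Ctss* value was not tested. Across the whole matrix, 281 rows were above 0 in CNC replicate 2 alone.

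**Figure D4:**
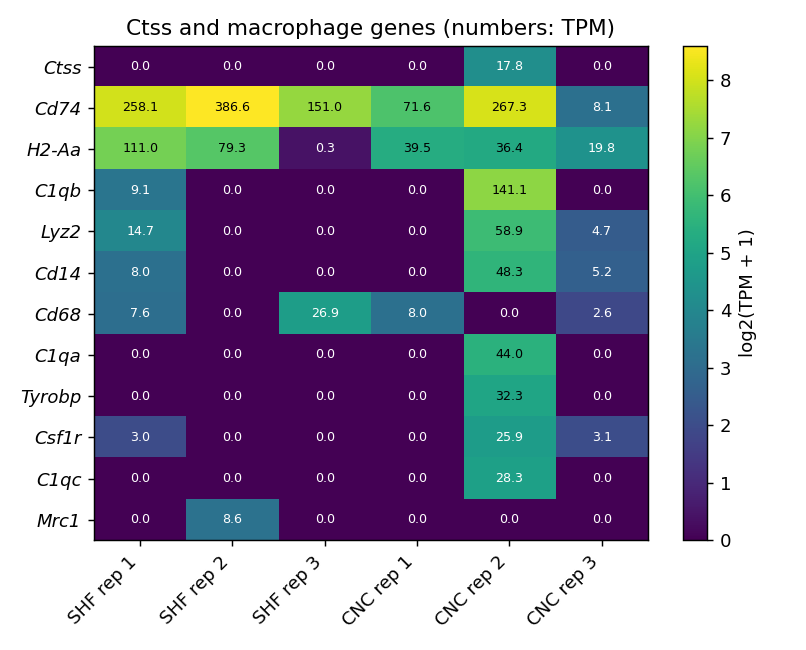
*Ctss* and the 11 macrophage genes whose mean reached 1 TPM, in rows, across the 6 libraries in columns, with colour for log2(TPM + 1) and the TPM printed in each field. *Ctss*, *C1qa*, *Tyrobp* and *C1qc* are above 0 in CNC replicate 2 alone, while *Cd74* and *H2-Aa* are above 0 in every library.

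Cathepsins outside the set had log2 means that were higher in CNC as well. Of 8 other cathepsin genes, *Ctsa*, *Ctsc*, *Ctsf*, *Ctsh* and *Ctso* passed the filter and *Ctse*, *Ctsg* and *Ctsw*, the proteases of gut epithelium, neutrophils and cytotoxic lymphocytes, were listed at 0 in all 6 libraries. None of the 5 had an adjusted p under 0.05 in limma with Benjamini-Hochberg adjustment, in either direction, and all 5 had a higher log2 mean in CNC, with a median difference of -0.94 against 0.02 for all genes tested. *Ctsf* measured 34.5, 76.7 and 77.3 TPM in SHF and 254, 109 and 135 TPM in CNC libraries, without overlap (log2 difference -1.38, SE 0.52, adjusted p 0.763). *Ctso* measured 19.6, 25.8 and 38.9 TPM in SHF and 49.3, 60.1 and 59.5 TPM in CNC libraries, also without overlap (log2 difference -1.03, SE 0.61, adjusted p 0.874). *Ctsh*, an aminopeptidase, was at 221, 183 and 331 TPM in SHF and 218, 247 and 857 TPM in CNC libraries, where CNC replicate 3 stood far above the other libraries. *Ctsa*, the protective protein of lysosomal beta-galactosidase, was at a mean of 107 ± 28.5 TPM in SHF against 172 ± 51.4 TPM in CNC libraries (SD, n = 3 each), and *Ctsc*, which activates granule proteases, was at 9.71 TPM on average and listed at 0 in 2 libraries.

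Among other cystatins and related inhibitors, the fetuins alone were above 0. Of 19 symbols listed for other cystatins and related inhibitors, 17 were in the matrix, and 15 of these, *Cst6* and *Cst7* among them, were listed at 0 in all 6 libraries. The other two were *Ahsg* and *Fetub*, plasma proteins of the fetuin group made mainly by liver. *Ahsg* was at a mean of 50.8 ± 34.7 TPM in SHF against 29.3 ± 30.1 TPM in CNC libraries (SD, n = 3 each), and *Fetub* was at 6.60 ± 10.7 TPM in SHF against 12.6 ± 13.2 TPM in CNC libraries (SD, n = 3 each). Their adjusted p in limma was 0.895 and 0.924.

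Genes that deliver and mature cathepsins were split between the lineages. Of 17 genes for sorting and maturation, 15 were tested, 0 passed the threshold in either direction, 6 had a higher log2 mean in SHF and 9 in CNC, and the median difference was -0.19. The abundant membrane proteins *Cd63*, *Lamp1* and *Lamp2* were at 1281, 682 and 503 TPM on average, with log2 differences of -0.19 (SE 0.25), 0.18 (SE 0.25) and -0.13 (SE 0.34). Of the 15, 2 were higher in SHF and 1 in CNC without overlap, against 6.11% and 5.68% of all genes tested, and these genes are named after their values were seen. *Lgmn*, or legumain, an asparaginyl endopeptidase that processes several cathepsins, was at 290, 276 and 211 TPM in SHF and 157, 128 and 192 TPM in CNC libraries (log2 difference 0.71, SE 0.35, adjusted p 0.874). *Igf2r*, the large mannose 6-phosphate receptor that carries lysosomal enzymes, was at 44.2, 79.4 and 34.7 TPM in SHF and 17.3, 10.4 and 24.1 TPM in CNC libraries (log2 difference 1.54, SE 0.74, adjusted p 0.870). *Psap*, the precursor of saposins, was higher in every CNC library, at a mean of 353 ± 46.5 TPM in SHF against 548 ± 76.6 TPM in CNC libraries (SD, n = 3 each). *Tfeb* was low, at 8.39, 0.52 and 0 TPM in SHF and 13.1, 0 and 1.59 TPM in CNC libraries.

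The list of other lysosomal hydrolases, which also holds the cholesterol carrier *Npc2*, had mostly higher means in CNC. Of 22 genes, 21 were tested, 0 passed the threshold, 18 had a higher log2 mean in CNC and 3 in SHF, against 48.8% of all genes tested higher in CNC, and the median difference was -0.54. The lineages did not overlap in 7 of the 21, of which 6, *Npc2* among them, were higher in CNC, against 11.8% of all genes tested without overlap and 5.68% higher in CNC, and no test of this list was made. *Hexa* and *Ppt1*, among the most abundant, overlapped, at 274 ± 65.8 and 184 ± 10.1 TPM (SD, n = 3) in SHF and 417 ± 135 and 189 ± 74.8 TPM (SD, n = 3) in CNC libraries. The 15 genes of the vacuolar proton pump, which acidifies the lysosome, were all tested, and 0 passed the threshold, with 8 higher in SHF and 7 in CNC and a median of 0.02, the same as that of all genes tested. *Atp6v0e*, *Atp6v0c* and *Atp6ap2*, the most abundant of these, had log2 differences of 0.23 (SE 0.32), -0.28 (SE 0.36) and -0.42 (SE 0.37).

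**Figure D5:**
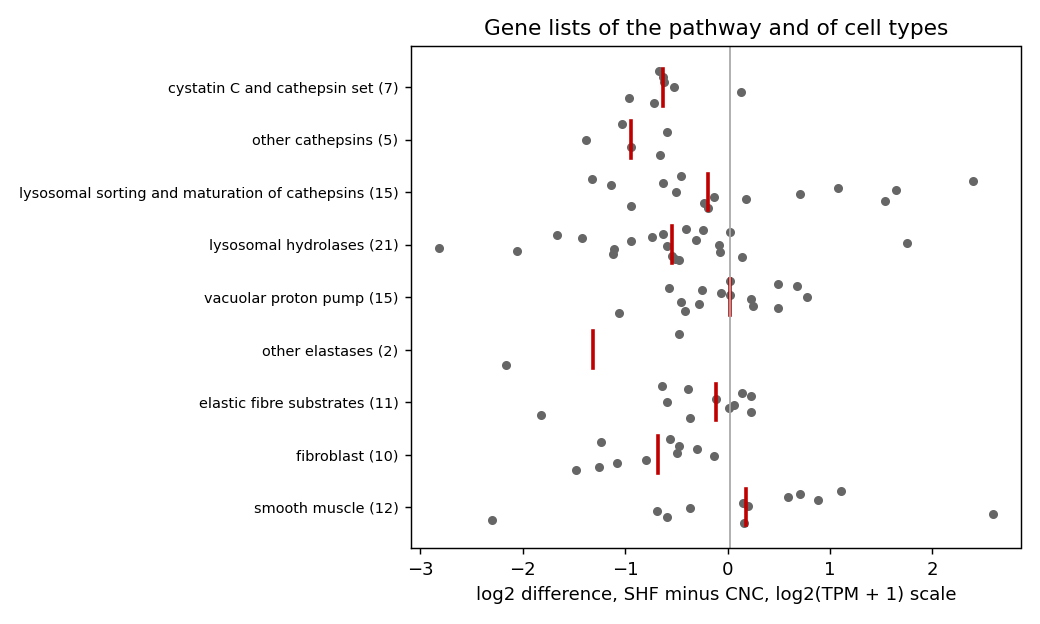
Log2 differences, SHF minus CNC, of the tested genes of each list, with the number tested in parentheses, a red bar at the median of the list and a grey line at the median of all genes tested, 0.02. The points of the vacuolar proton pump lie around the grey line at a median of 0.02, while the medians of the cystatin C and cathepsin set (-0.63), other cathepsins (-0.94), lysosomal hydrolases (-0.54) and fibroblast genes (-0.68) lie on the CNC side.

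Elastin, the substrate of the elastolytic cathepsins, and other elastases were read beside them. *Eln* measured 1758, 370 and 581 TPM in SHF and 4711, 1081 and 3297 TPM in CNC libraries, so that SHF replicate 1 lay above CNC replicate 2 (log2 difference -1.82, SE 0.60, adjusted p 0.688). Of 12 elastic fibre genes, 11 were tested and 0 passed the threshold, with 5 higher in SHF and 6 in CNC and a median of -0.11. Without overlap, 3 of the 11 were higher in CNC and 0 in SHF, against 5.68% and 6.11% of all genes tested. *Mfap4* and *Fbln1*, microfibril-associated and fibulin proteins, were at 3135 and 2100 TPM on average. Among 8 other elastases, *Mmp2*, or gelatinase A, was at a mean of 1125 ± 223 TPM in SHF against 1540 ± 138 TPM in CNC libraries (SD, n = 3 each) without overlap (log2 difference -0.47, SE 0.24, adjusted p 0.874). Only *Mmp2* and *Mmp14* of the list were tested, *Cela1* was above 0 in SHF replicate 1 alone, and *Mmp7*, *Mmp9*, *Mmp12*, *Elane* and *Prtn3* were listed at 0 in all 6 libraries. *Mmp2* and *Ctsl* were thus at similar mean levels, 1333 and 1430 TPM.

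The tested genes whose pattern was most like that of *Cst3* were *Npc2*, *Cdv3* and *Gpx8*. Likeness was the root mean square difference of log2(TPM + 1) over the 6 libraries after each gene was centred on its own mean, and it was 0.08, 0.10 and 0.11 for these genes. *Npc2*, a lysosomal cholesterol carrier, was at 145, 128 and 130 TPM in SHF and 190, 188 and 251 TPM in CNC libraries. For *Ctss* the most similar tested genes were *Fam205a2*, *Soat2* and *Napb*, at 0.52, 0.54 and 0.55, each highest in CNC replicate 2 at 25.5, 27.2 and 20.0 TPM. The libraries are few and the genes compared many, so these are descriptions of the 6 libraries.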

How the data were processed

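Bulk RNA sequencing of sorted GFP+ cells gave 6 libraries, 3 SHF and 3 CNC. Per the labels, the authors ran RSEM 1.2.25 with Bowtie2 against mm10, and they deposited TPM, 1 column per library, matched by library code. The gene annotation is not given in the sources used here. Depth is unknown, since TPM sums to 1000000 in each library, so no counting interval was computed. Of the 24421 rows, 27 have names that are dates.

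The 10185 genes that reached 1 TPM in 3 or more libraries entered a limma 3.58.1 fit (R 4.3.3, eBayes with a mean-variance trend) of log2(TPM + 1). Differences are SHF minus CNC, and p-values were adjusted by the Benjamini-Hochberg method. This scale understates differences of low genes. The fit was tested on simulated data. The study calls the libraries of a lineage biological replicates, and p-values measure the spread between them. The 8 genes and all lists were chosen with earlier results of these data known. Named are the 8 genes, other cathepsins and cystatins with a mean of at least 1 TPM, the 3 most abundant genes of the other lists, defining macrophage genes, the 3 genes most like *Cst3* and *Ctss*, and genes past the threshold, apart from some that are not reported here. Genes outside this rule are marked, except *Tfeb*, *Ddx3y*, *Xist*, *Cdh5*, *Tie1*, *Vwf*, *Tek*, *Kdr*, *Erg* and genes listed at 0 in all libraries, also named after their values were seen. Alternatives were pseudocounts of 0.1 and 5, other filters, 2 rescalings, eBayes without a trend, a replicate block and each library left out. Python 3.11.15 with pandas 2.3.3 and matplotlib 3.10.9 served for tables and plots. The single-cell data were not analysed here.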

Additional observations from a re-analysis of the deposited data

How the results depend on the processing

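The number of genes past the threshold in limma with Benjamini-Hochberg adjustment was 0 and was 1 with a pseudocount of 5, a gene outside the set (*Gm13305*), and it was 0 to 0 across the fits that each left out 1 library. The log2 differences of the 7 tested genes of the set kept their direction in all 98 alternative values, counted over genes and settings, and moved by less than the pooled SD. Median-of-ratios rescaling and quantile normalization moved the median of all genes by -0.07 and -0.04. The count of genes of the set without overlap was 3, ran from 3 to 5 when single libraries were left out, highest without SHF replicate 1 and without SHF replicate 3, and was 1 relative to the fibroblast list. Of the 10185 genes tested, 1200 showed no overlap over all 6 libraries, 2052 to 2547 with a library left out, and 1937 relative to the fibroblast list. Counts of overlap under these settings were added after seeing the data. The summed cysteine cathepsins were 0.218 of *Cst3* in SHF and 0.183 in CNC libraries, and with *Ctsk*, *Ctsl* and *Ctss* alone 0.135 and 0.124. No gene of the set met the lineage-exclusive filter under any alternative tried, at a count of 0, again without the share of all rows to set beside it.

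Replicate numbers are shared between lineages, but deviations from the lineage means correlated at -0.011, -0.004 and -0.011 for replicates 1, 2 and 3. No SHF library correlated best with the CNC library of its own number, so no pairing by number was seen. These correlations cannot show whether libraries of the same number were prepared together. Under a replicate block 0 genes passed the threshold. Unknown depth and 3 libraries per lineage limit what could be detected.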
